A study of Mus musculus with 11 samples.

Results

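The complement genes C1qa, C1qb, C1qc, C2, C3, C4b, Cfb, Serping1 and Clu were followed in bulk RNA of mouse knee articular cartilage. They were chosen by name and not by a measured value, though with earlier results of these data known. They are 9 of the 57 genes of a wider complement list and of the 55421 genes in the deposited files. All were detected in each of the 11 libraries and passed the filter on low counts. Complement is a cascade of plasma and tissue proteins that tags surfaces for removal and calls in immune cells. C1q, built from the chains of C1qa, C1qb and C1qc, starts the classical pathway, C4b and C2 supply its C3-cleaving enzyme, and Cfb supplies that of the alternative pathway, while C3 is the protein on which the pathways meet. Serping1 and Clu encode inhibitors: the C1 inhibitor, which blocks the proteases that C1q activates, and clusterin, a secreted chaperone that also binds the terminal complex. In joints, macrophages are a known source of C1q, and chondrocytes are known to make clusterin.

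Cartilage was collected 4 weeks after DMM, surgical destabilization of the medial meniscus, which makes the joint unstable and is used to model osteoarthritis. All mice were of the C57BL/6 strain and 14 weeks old. Of the c-FosWT label there were 4 libraries of contralateral knees and 3 of DMM knees, and of the c-FosDCh label 4 of DMM knees. The 11 libraries come from 8 animals, since 3 c-FosWT animals gave both knees, and no contralateral knee of the c-FosDCh label was analysed here. Neither the promoter that drives the c-FosDCh allele nor the part of Fos that it affects is given in the sources used here. Fos itself had 9.01 to 14.1 CPM in c-FosWT DMM libraries and 10.9 to 33.0 CPM in the libraries labelled c-FosDCh, so the gene-wide count was not lower there. It covers the whole gene and does not check the allele, and each direction given for this genotype rests on its label. Counts assigned to genes ranged from 13593454 to 18280558 per library. Levels are given in CPM, counts relative to the TMM-scaled library total, and ± is the SD of a level or the SE of a log2 fold change.

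Dissected cartilage held RNA of other tissues in amounts that differed between libraries. All 21 chondrocyte marker genes had reads in every library, and their summed level was 18680 to 33440 CPM in contralateral, 6283 to 16640 in c-FosWT DMM and 19580 to 52430 in libraries labelled c-FosDCh. The 16 macrophage markers, all with reads in every library, summed to 620.5 to 781.7, 753.7 to 899.5 and 221.9 to 662.8 CPM in the same order. The macrophage score, the mean log2 CPM of these markers, was 4.09 to 4.57 in 9 libraries but 3.26 and 2.34 in replicates 3 and 4 labelled c-FosDCh. Both libraries stood apart in other lists too. Their endothelial scores were 3.43 and 2.85 against 4.58 to 5.30 in the other 9, and their adipocyte scores 0.43 and -0.90 against 3.04 to 3.83. Their chondrocyte scores, 8.17 and 8.04, were the highest of all but without a gap, since contralateral replicate 1 had 8.01. The chondrocyte score and the summed level did not order all libraries alike, which limits the score as a covariate and in correlations. Replicates 1 and 2 labelled c-FosDCh had scores of 7.15 and 7.17 and sums of 24660 and 19580 CPM. In c-FosWT DMM replicate 1 the score was 7.75 and the sum 16640 CPM. In bulk RNA, fewer cells of a type and less RNA per cell cannot be told apart. Within each group the libraries come from different animals.

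The C1q genes sit side by side within 18.7 kb of chromosome 4 (GRCm38): C1qb at 136880129 to 136886187, C1qc at 136889804 to 136893065 and C1qa at 136895917 to 136898803, all on the minus strand. C4b (34728380 to 34743882), Cfb (34856374 to 34862518) and C2 (34862604 to 34898265) lie together on the minus strand of chromosome 17, and C3 lies apart on the same chromosome (57203970 to 57228136, minus strand). Serping1 is on chromosome 2 (84765387 to 84775444, minus strand) and Clu on chromosome 14 (65968483 to 65981547, plus strand). Promoters of C1qb, C1qc and C3 were in the RefSeq table (GRCm38.p6) and are shown because these 3 genes had their lowest levels in the same libraries. Each is written 5′ to 3′ toward the gene, from the minus strand, and ends at the base before the RefSeq start, except for C1qc, of which only the 99 bases outside the GENCODE gene model are printed. Capitals mark the ETS/PU.1 letters GAGGAA on either strand. The C1qb sequence covers chr4:136886201-136886450, that of C1qc chr4:136893066-136893164 and that of C3 chr17:57228137-57228386.
C1qb: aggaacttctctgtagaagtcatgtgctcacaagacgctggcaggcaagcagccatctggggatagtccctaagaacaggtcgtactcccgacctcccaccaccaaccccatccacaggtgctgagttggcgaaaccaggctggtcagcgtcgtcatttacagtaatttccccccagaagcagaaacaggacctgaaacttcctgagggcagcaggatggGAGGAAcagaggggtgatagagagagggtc
C1qc: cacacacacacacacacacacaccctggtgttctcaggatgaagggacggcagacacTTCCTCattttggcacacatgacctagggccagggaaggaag
C3: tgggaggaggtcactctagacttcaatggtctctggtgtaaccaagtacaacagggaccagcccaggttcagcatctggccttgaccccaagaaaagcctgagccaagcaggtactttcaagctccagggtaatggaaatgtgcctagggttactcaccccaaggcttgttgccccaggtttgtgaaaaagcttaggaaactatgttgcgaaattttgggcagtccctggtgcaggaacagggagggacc
Of the motifs searched in the 250 bases before the start, on both strands, C1qb and C1qc each held GAGGAA once, a string present in 23.3% of the 32851 promoters in the table. C1qc also held 1 match to the NF-kB consensus, present in 3.9% of promoters, in the bases not printed. The AP-1 letters TGANTCA (6.75% of promoters), the CRE letters TGACGTCA (1.55%), the interferon-stimulated element GAAANNGAA (7.13%) and the GAS letters TTCNNNGAA (7.02%) had no match in these promoters, and C3 had none of the motifs searched. No match overlapped another. A match is only a run of letters, and its absence says nothing about a factor.

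To set the genes against each other, CPM were divided by the number of positions at which a 75-base read can be counted for that gene. On this scale Clu was the most abundant gene in contralateral cartilage, at 912 ± 274 CPM per 1000 countable positions (SD, n = 4), followed by C4b at 134 ± 31.2. C1qb (64.5 ± 15.3), Serping1 (62.0 ± 21.6), C3 (56.5 ± 26.4), C1qa (51.3 ± 9.89) and C1qc (40.1 ± 6.84) came next, and neighbours among these 5 differed by less than the sum of their SDs. C2 (2.68 ± 1.30) and Cfb (1.52 ± 0.43) were lowest and also overlapped in their spread. In c-FosWT DMM libraries the order changed below Clu (282 ± 134, n = 3): C3 (87.1 ± 21.9) stood above C1qb (66.2 ± 3.55), C4b (58.2 ± 13.4), Serping1 (50.5 ± 12.3), C1qa (50.4 ± 4.53) and C1qc (40.3 ± 0.32). Of these 6, only the neighbours C1qa and C1qc differed by more than the sum of their SDs. In libraries labelled c-FosDCh, Clu had 1915 ± 1224 and C4b 214 ± 158 CPM per 1000 countable positions (n = 4), and the other genes had means of 1.93 to 44.2. C2 and Cfb rest on few reads and overlap another gene model: 74.5% of the read positions of C2 and 85.3% of those of Cfb fall within exons of Gm20547 on the same strand, where a read is ambiguous and not counted. Gm20547 had 0 counts in all libraries, C2 had 8 to 57 counts per library and Cfb 1 to 21, so their levels are uncertain. For C4b, 23.5% of positions also occur in the near-identical C4a and are lost to multimapping.

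**Figure D1:**
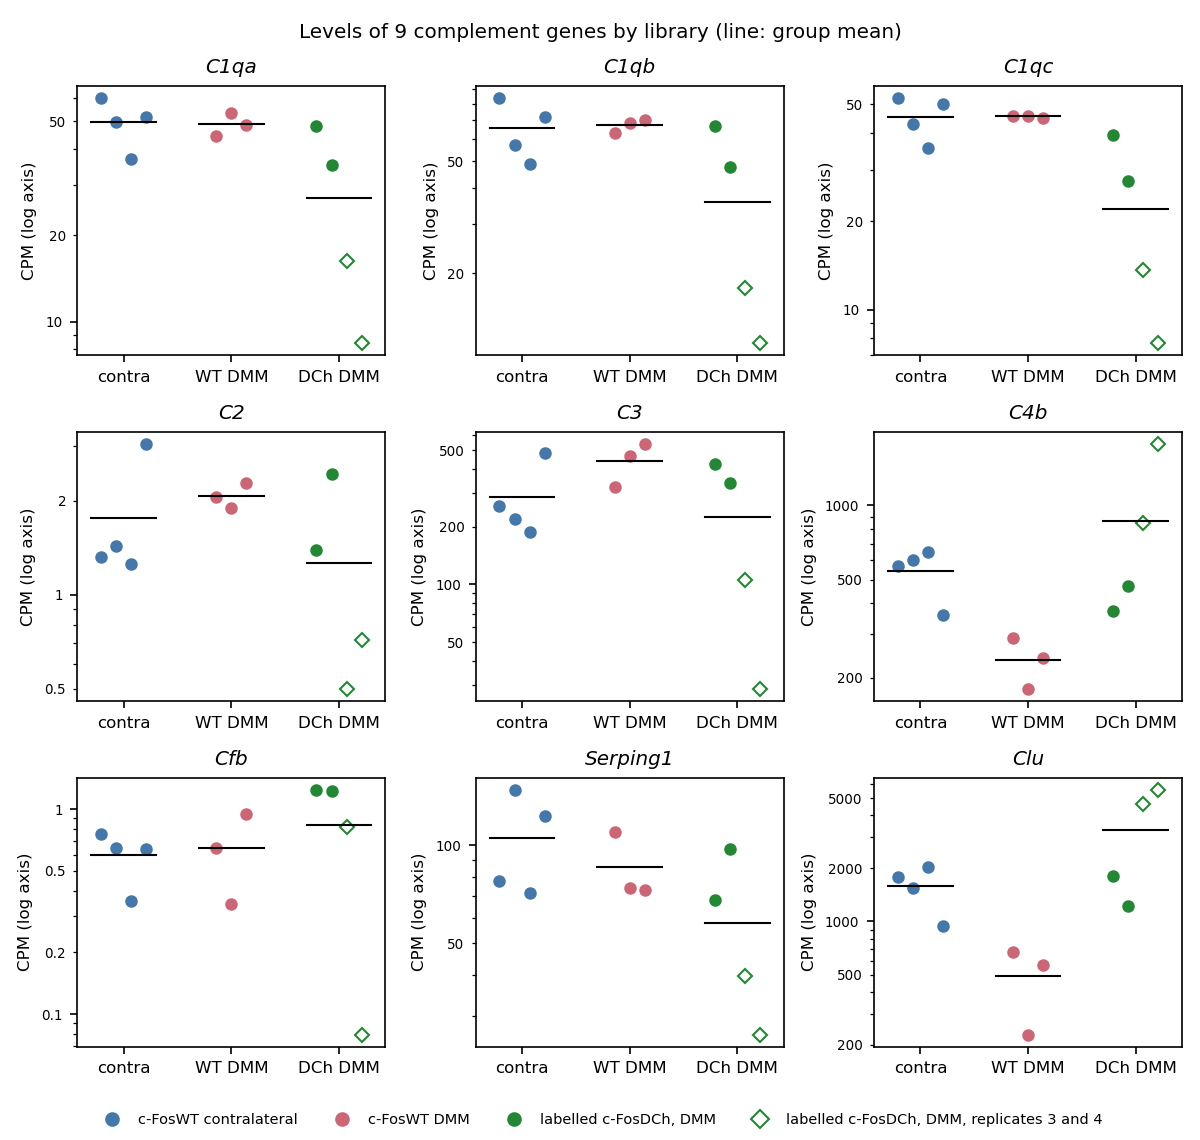
CPM of the 9 genes on log axes, 1 point per library, with a line at the mean of each group; open diamonds are replicates 3 and 4 labelled c-FosDCh. These 2 libraries hold the lowest C1qa, C1qb, C1qc, C3 and Serping1 values and the highest C4b and Clu values, and all c-FosWT DMM libraries lie below all contralateral libraries for C4b and Clu.

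The first comparison asked what surgery changed in c-FosWT cartilage. None of the 9 genes passed the edgeR quasi-likelihood test (Benjamini-Hochberg adjusted p under 0.05), against a background of 0% of 18125 genes called. The genes with the lowest p were Clu and C4b, both with lower values after DMM. At an unadjusted p under 0.05, 3605 genes were counted over the whole table, Clu and C4b among them, and DESeq2 called 801 genes, of the 9 only Clu.

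Clu had 1790, 1549, 2052 and 939 CPM in contralateral replicates 1 to 4 and 674, 228 and 564 CPM in c-FosWT DMM replicates 1 to 3. The groups did not overlap, though the share of all genes tested without overlap was not computed for any comparison here. In each of the 3 animals with both knees Clu was lower after DMM, by 0.74 to 2.76 on the log2 scale. The log2 fold change was -1.70 ± 0.58 with an edgeR adjusted p of 0.187, and DESeq2 gave -1.67 with an adjusted p of 0.0426. C4b had 569, 600, 645 and 359 CPM in contralateral libraries and 288, 180 and 239 CPM after DMM. These groups did not overlap either, and the 3 within-animal differences were -0.98, -1.73 and -0.59. Its log2 fold change was -1.20 ± 0.49 (edgeR adjusted p = 0.222). With the animal as a block over the 3 pairs of knees, Clu was at -1.62 and C4b at -1.09, each with an edgeR adjusted p of 0.202. The chondrocyte score moved with these values, at 7.77 ± 0.29 in contralateral (n = 4) and 6.90 ± 0.88 in c-FosWT DMM libraries (n = 3). Mean CPM after DMM was higher for its markers Col9a1 (91.5 against 81.8), Matn3 (46.4 against 39.3) and Matn1 (2.14 against 1.28). It was lower for the other markers of the score. Marrow RNA also differed: erythroid marker sums were 2348 to 6958 CPM in contralateral and 7983 to 13130 CPM in c-FosWT DMM libraries. The marrow score, the mean of the erythroid and granulocyte scores, was 7.03 ± 0.77 and 8.37 ± 0.38 in the same order. With the chondrocyte score as a covariate, the values were -0.90 ± 0.47 for Clu (edgeR adjusted p = 0.8) and -0.64 ± 0.52 for C4b (edgeR adjusted p = 0.871).

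C3 had 256, 219, 187 and 482 CPM in contralateral and 320, 465 and 538 CPM in c-FosWT DMM libraries. The groups overlapped through contralateral replicate 4, and the log2 fold change was 0.63 ± 0.71 (edgeR adjusted p = 0.614). That replicate also had the highest granulocyte marker sum of its group, 9908 CPM against 3142 to 7100 in the other 3. In c-FosWT DMM libraries this sum was 7405 to 13890 CPM; its part in the C3 values was not tested. C1qa, C1qb and C1qc had log2 fold changes near 0, of -0.02 ± 0.46, 0.04 ± 0.50 and 0.01 ± 0.43, with edgeR adjusted p of 0.971 to 0.993. These p-values do not show that the levels were the same. Serping1 (-0.30 ± 0.42), C2 (0.23 ± 0.50) and Cfb (0.11 ± 0.64) also did not pass.

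**Figure D2:**
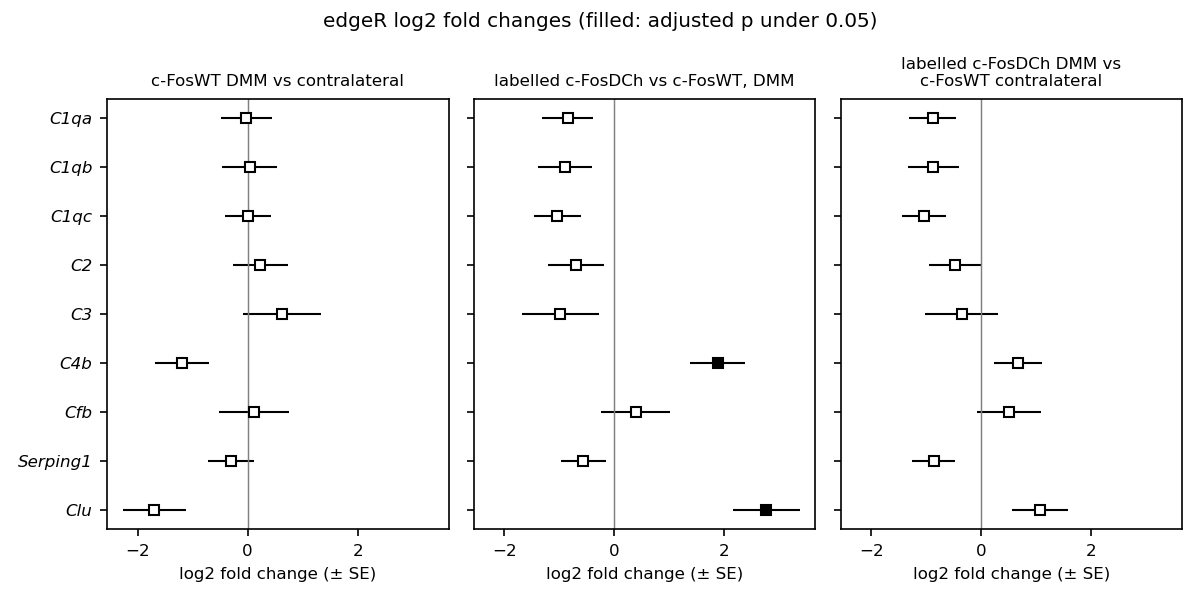
Log2 fold changes (x axis, bars are SE) of the 9 genes in the edgeR fit of 11 libraries, 1 panel per comparison; filled squares have an adjusted p under 0.05. Only C4b (1.88) and Clu (2.77) between the DMM groups are filled, and both have negative values between c-FosWT DMM and contralateral libraries, comparisons that share the c-FosWT DMM libraries.

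Operated knees of both labels were compared next, 4 libraries labelled c-FosDCh with 3 of the c-FosWT label. Of the 9 genes Clu and C4b were called, both higher with the c-FosDCh label, against a background of 14.4% of 18125 genes called in this comparison. The other 7 did not pass, and 6 of them had negative values: the 3 C1q chains, C2, C3 and Serping1. The median log2 fold change was -0.70 over the 9 genes and -0.01 over all genes tested. How many of all genes tested had DMM groups without overlap was not computed, which limits each such remark below.

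Clu had 1821, 1232, 4650 and 5595 CPM in replicates 1 to 4 labelled c-FosDCh, above every c-FosWT DMM library (228 to 674 CPM). The log2 fold change was 2.77 ± 0.61 (edgeR adjusted p = 0.0332). C4b had 373, 471, 848 and 1776 CPM, again above every c-FosWT DMM library (180 to 288 CPM), with a log2 fold change of 1.88 ± 0.50 (edgeR adjusted p = 0.0401). In both genes replicates 3 and 4 lay far above replicates 1 and 2, and they were the 2 libraries with chondrocyte marker sums of 51950 and 52430 CPM against 24660 and 19580 in replicates 1 and 2. Not every chondrocyte marker was higher with the c-FosDCh label than in c-FosWT DMM libraries. Mean CPM was lower for Col9a1 (35.4 against 91.5), Cnmd (37.4 against 52.9), Matn3 (1.34 against 46.4), Matn1 (0.262 against 2.14) and Epyc (0.352 against 1.35). It was higher for the other markers of the chondrocyte score. Without replicates 3 and 4, Clu was at 1.64 ± 0.44 (edgeR adjusted p = 0.163) and C4b at 0.83 ± 0.26 (0.176), and neither was called. With the macrophage score as a covariate the values were 1.52 ± 0.48 for Clu and 0.48 ± 0.22 for C4b (edgeR adjusted p = 0.304 and 0.423). With the chondrocyte score they were 1.88 ± 0.49 and 1.25 ± 0.54 (0.157 and 0.236), and with the marrow score, the mean of the erythroid and granulocyte scores, 1.37 ± 0.51 and 0.39 ± 0.23 (0.43 and 0.577). Neither gene kept its call with any of these 3 covariates, while both values stayed positive; 0 of 18125 genes were called in each of these fits and 0 of 18438 without replicates 3 and 4, so the loss covers the whole table. Both calls were also lost when 1 library was left out, whether contralateral replicate 1 or 2, c-FosWT DMM replicate 2 or 3, or replicate 3 or 4 labelled c-FosDCh; these fits called 0 genes in all, or 1 without contralateral replicate 2. The call of C4b was lost without contralateral replicate 3 or c-FosWT DMM replicate 1, where 7.56% and 11.5% of genes were called. Over all fits without 1 library Clu ranged from 2.40 to 3.04 and C4b from 1.26 to 2.11.

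The C1q chains had values that fell into a high and a low pair of libraries within the c-FosDCh label. C1qa had 48.0, 35.2, 16.3 and 8.42 CPM in replicates 1 to 4, against 44.4, 53.1 and 48.6 CPM in c-FosWT DMM libraries. C1qb had 66.7, 47.8, 17.6 and 11.3 CPM against 63.1, 68.3 and 70.0 CPM. C1qc had 39.4, 27.5, 13.7 and 7.70 CPM against 45.7, 45.7 and 45.1 CPM, and of the 3 chains it alone had no overlap between the groups. Log2 fold changes were -0.85 ± 0.46, -0.90 ± 0.49 and -1.04 ± 0.43 for C1qa, C1qb and C1qc (edgeR adjusted p = 0.183, 0.191 and 0.103). Without replicate 1 labelled c-FosDCh all 3 chains were called (-1.31, -1.42 and -1.50, edgeR adjusted p = 0.0492, 0.0486 and 0.0307), in a fit that called 24.6% of all genes tested. Without replicates 3 and 4 the values were -0.24, -0.24 and -0.46, and with the macrophage score as a covariate they were 0.10 ± 0.15, 0.07 ± 0.19 and -0.15 ± 0.13. The summed macrophage markers of replicates 1 to 4 were 662.8, 627.7, 332.3 and 221.9 CPM, the same order as the C1q chains. Granulocyte sums (10710, 5956, 2686 and 303.2 CPM) and adipocyte sums (87.68, 79.8, 15.76 and 4.289 CPM) had this order too, while endothelial and erythroid sums did not. Over all 11 libraries the macrophage score had r of 0.99, 0.98 and 0.99 with C1qa, C1qb and C1qc. A value near 0 with this covariate therefore does not single out macrophages.

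C3 had 424, 337, 105 and 28.7 CPM in replicates 1 to 4 labelled c-FosDCh, against 320, 465 and 538 CPM in c-FosWT DMM libraries. The groups overlapped and the log2 fold change was -0.98 ± 0.71 (edgeR adjusted p = 0.305). Its value was 0.41 ± 0.28 with the macrophage and 0.63 ± 0.21 with the marrow score as a covariate, and -0.23 ± 0.40 without replicates 3 and 4. The direction of C3 thus changed with the covariate, while no fit called it. The granulocyte marker sum of replicates 1 to 4 was 10710, 5956, 2686 and 303.2 CPM. Serping1 had 68.1, 97.1, 39.8 and 26.3 CPM against 110, 73.9 and 73.1 CPM, a log2 fold change of -0.56 ± 0.42 (edgeR adjusted p = 0.316) with overlapping groups. C2 (-0.70 ± 0.51) and Cfb (0.39 ± 0.63) did not pass and overlapped.

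Against contralateral c-FosWT libraries, the libraries labelled c-FosDCh differ in genotype and surgery together. None of the 9 genes passed (0% of 18125 genes called; 1512 at an unadjusted p under 0.05, and 37 called by DESeq2). Clu was at 1.07 ± 0.51 and C4b at 0.67 ± 0.44, and the C1q chains were at -0.88 ± 0.43, -0.87 ± 0.46 and -1.03 ± 0.40 (edgeR adjusted p = 0.584 to 0.625). The contralateral libraries lay between the 2 DMM groups in mean Clu (1583 ± 476 CPM, against 489 ± 233 in c-FosWT DMM and 3325 ± 2125 with the c-FosDCh label) and in mean C4b (543 ± 127, against 236 ± 54.2 and 867 ± 640). Replicates 1 and 2 labelled c-FosDCh had Clu and C4b values within the contralateral range, and replicates 3 and 4 lay above it. Serping1 (-0.86 ± 0.39), C3 (-0.36 ± 0.66), C2 (-0.47 ± 0.48) and Cfb (0.50 ± 0.58) did not pass. These comparisons share their control libraries, so their values are set side by side and not counted as separate support.

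Co-variation of each gene with the macrophage and chondrocyte scores was then described across libraries, 18 relations in all. None of the 9 genes is in either marker list. Because replicates 3 and 4 labelled c-FosDCh form a cluster of their own on the macrophage score, relations with it were computed over the other 9 libraries. Over these, C1qc had Pearson r = 0.90 (exact permutation p = 0.00227, adjusted p = 0.0317; Spearman rho = 0.72, p = 0.0369), C1qb r = 0.83 (exact permutation p = 0.00516, adjusted p = 0.0317; rho = 0.78, p = 0.0172) and C1qa r = 0.79 (exact permutation p = 0.0132, adjusted p = 0.059; rho = 0.57, p = 0.121). The p beside each rho is an unadjusted permutation p. Adjusted over the 18 relations, the permutation p of rho was 0.0948, 0.0907 and 0.217 for C1qc, C1qb and C1qa. No rank relation of the reported setting passed. For deviations from the group means Pearson r of these chains was 0.93, 0.88 and 0.83. Replicate 2 labelled c-FosDCh and contralateral replicate 3 had the scores farthest from the median, and with both left out r fell to 0.49, 0.45 and 0.09. These relations therefore depend on those 2 libraries. Leaving out the extremes narrows the range of the score, which by itself lowers r. C3 had r = 0.56 (exact permutation p = 0.118, adjusted p = 0.237) and 0.78 for deviations from group means, C4b had -0.64 and Clu -0.56, and C2, Cfb and Serping1 lay between -0.25 and 0.21. The median r over all genes tested was -0.03, and 0.14%, 0.72% and 1.61% of them had a higher r than C1qc, C1qb and C1qa.

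**Figure D3:**
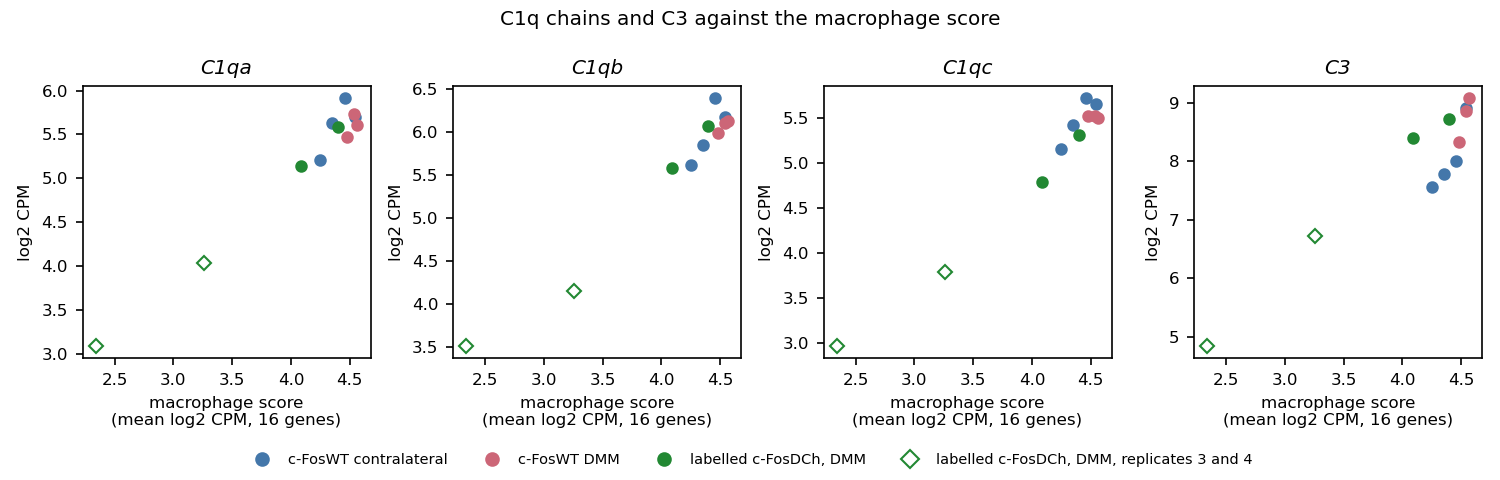
Log2 CPM of C1qa, C1qb, C1qc and C3 (y axes) against the macrophage score, the mean log2 CPM of 16 marker genes (x axis), 1 point per library. Replicates 3 and 4 labelled c-FosDCh (open diamonds, scores 3.26 and 2.34) lie apart from the other 9 libraries (4.09 to 4.57) and have the lowest values of all 4 genes.

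With the chondrocyte score, taken over all 11 libraries, Clu had r = 0.77 (permutation p = 0.00528, adjusted p = 0.0317; rho = 0.66, p = 0.0302) and C4b r = 0.71 (permutation p = 0.0164, adjusted p = 0.059; rho = 0.71, p = 0.0178). Both rho had an adjusted permutation p of 0.0907, so neither rank relation passed. The C1q chains had r of -0.45 to -0.39, C3 -0.56, C2 -0.45, Serping1 -0.25 and Cfb -0.13, none of which passed, and the median over all genes was 0.01. Of all genes tested, 4.29% had a higher r than Clu and 9.21% a higher r than C4b. For deviations from group means Clu stayed at 0.77 and C4b was at 0.58. Once c-FosWT DMM replicates 2 and 3, whose scores lay farthest from the median, were left out, Clu fell to 0.41 and C4b to 0.45. These relations therefore depend on those samples, though here too leaving out the extremes narrows the range of the score. Replicates 3 and 4 labelled c-FosDCh, left out for the macrophage score, have the highest chondrocyte scores, and over the other 9 libraries Clu had r = 0.71 (rho = 0.40) and C4b r = 0.67 (rho = 0.48), each r with an adjusted exact permutation p of 0.147, so neither passed. The 11 libraries come from 8 animals, and with 1 library per animal no Pearson r passed: Clu had r = 0.85 over 8 libraries with the chondrocyte score and C1qc r = 0.98 over 6 libraries with the macrophage score, each with an adjusted exact permutation p of 0.0618. In that setting 1 rank correlation passed, that of C3 with the chondrocyte score (rho = -0.93, n = 8, adjusted exact permutation p = 0.0402).

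**Figure D4:**
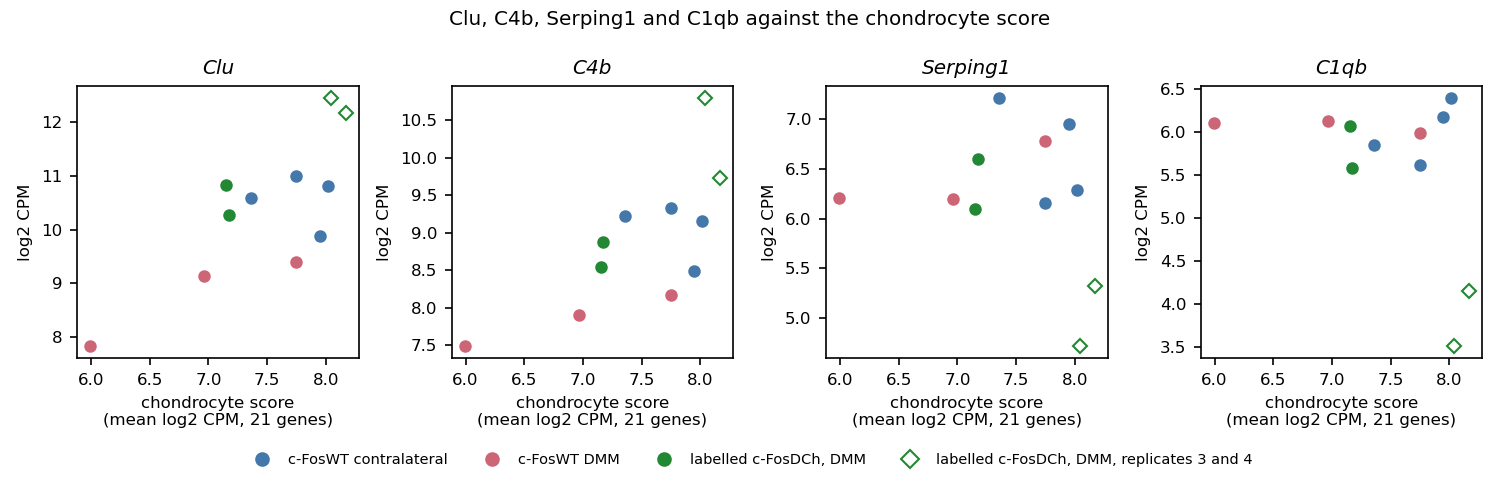
Log2 CPM of Clu, C4b, Serping1 and C1qb (y axes) against the chondrocyte score, the mean log2 CPM of 21 marker genes (x axis), 1 point per library. Clu and C4b are lowest in the library of lowest score (5.99, c-FosWT DMM replicate 2) and highest in replicates 3 and 4 labelled c-FosDCh (open diamonds), whereas C1qb and Serping1 are lowest there.

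Endothelial, B cell, adipocyte and granulocyte scores were low in the same 2 libraries as the macrophage score, so with these libraries included the cell types cannot be told apart. Correlations of the genes with these other scores were not computed, so the relations without these 2 libraries do not single out macrophages either. Relative to the macrophage score the C1q chains were at 1.21 ± 0.21, 1.60 ± 0.24 and 1.09 ± 0.15 in contralateral (n = 4), 1.08 ± 0.11, 1.54 ± 0.04 and 0.98 ± 0.05 in c-FosWT DMM (n = 3) and 0.94 ± 0.21, 1.31 ± 0.34 and 0.69 ± 0.16 in libraries labelled c-FosDCh (n = 4), in the order C1qa, C1qb, C1qc. Clu minus the chondrocyte score was 2.80 ± 0.62, 1.89 ± 0.27 and 3.80 ± 0.56 in the same groups.

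Among themselves the C1q chains kept a nearly fixed ratio. Log2 of C1qb over C1qa was 0.40 ± 0.13 (SD, n = 11 libraries) and of C1qc over C1qa -0.16 ± 0.12, while C1qa itself ranged from 8.42 to 60.0 CPM. Clu and C4b varied together, with r = 0.92 over the 9 libraries without replicates 3 and 4 labelled c-FosDCh, although they lie on different chromosomes. C3 and C4b varied in opposite directions (r = -0.83 over these 9 libraries). With all 11 libraries, log2 C4b minus log2 C3 was 0.99 ± 0.98 in contralateral, -0.89 ± 0.65 in c-FosWT DMM and 2.31 ± 2.79 in libraries labelled c-FosDCh. Replicates 1 to 4 of the last group had -0.18, 0.48, 3.01 and 5.95, so its high mean comes from replicates 3 and 4. The r values of these gene pairs describe 9 libraries that share animals and tissue makeup, and no p is given for them. The neighbours C4b and C2 had r = -0.51, and C4b and Cfb 0.10, with the low counts of C2 and Cfb in mind.

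For each gene the most alike genes were those with the highest r of deviations of log2 CPM from group means over the 11 libraries. They were Trim30d (0.99), Ccl6 (0.99) and Cd300lb (0.98) for C1qa. For C1qb they were Oasl1 (0.99), Mmd (0.99) and Ly6e (0.99), and for C1qc Oas1a (0.99), Trim30d (0.99) and Ifitm3 (0.98). C3 was closest to Plcl2, Fgd4 and Ptpn7 (0.99 each), C4b to Copg1, Arfip2 and Mon2 (0.99 each) and Clu to Chst5, Lgr6 and Ak4 (0.99 each). Serping1 was closest to Cyfip1 (0.98), Uqcrfs1 (0.95) and Afap1l1 (0.95), C2 to Podnl1 (0.99), Col14a1 (0.96) and Osbpl8 (0.95), and Cfb to Itga6 (0.96), Atp5o (0.95) and Arsg (0.95). Of these genes Ccl6, a chemokine of myeloid cells, and Cd300lb, a receptor of myeloid cells, are known from cells of the macrophage lineage, Oasl1, Oas1a and Ifitm3 are interferon-induced genes, and Col14a1, a collagen, belongs to the fibroblast marker list. All 11 libraries enter these coefficients, the 2 that stand apart included.

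The wider complement list placed these genes in their pathway. Of its 57 genes 42 passed the filter on low counts, and between the DMM groups 3 were called, all higher in libraries labelled c-FosDCh, against the 14.4% called among all genes: Clu, C4b and Colec12. Colec12, a scavenger receptor of the collectin family that can start complement activation, had a log2 fold change of 1.06 ± 0.26 (edgeR adjusted p = 0.0352). Its levels were 226, 185, 325 and 328 CPM with the c-FosDCh label and 174, 104 and 105 CPM in c-FosWT DMM libraries. None of the 3 was called in the fits that left out contralateral replicate 1 or 2, c-FosWT DMM replicate 2 or 3, or replicate 3 or 4 labelled c-FosDCh, the fits in which at most 1 gene of the whole table was called. No gene of the list was called in the other 2 comparisons by edgeR. The median log2 fold change of the 33 tested genes outside the 9 was -0.73 between the DMM groups, 0.07 between the c-FosWT groups and -0.39 between libraries labelled c-FosDCh and contralateral libraries, beside medians of -0.01, -0.01 and -0.00 over all genes.

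By role, 7 tested recognition genes outside the 9 gave 1 call, Colec12. Of the convertase genes, Cfd, the protease that activates factor B and a product of fat cells, had 0.397 to 104 CPM over the libraries (-1.18 ± 1.13 between the DMM groups), with its lowest values, 1.75 and 0.397 CPM, in replicates 3 and 4 labelled c-FosDCh. Cfp, the stabilising factor properdin, had 10.9 to 74.0 CPM (-1.11 ± 0.46). Neither passed. Terminal components were scarce: 3 of 6 were tested, none was called, and C6 and C8g averaged 1.64 and 0.81 CPM. The regulators outside the 9 gave no call among 10 tested genes. Of the soluble ones Vtn, vitronectin, averaged 0.72 CPM. Among membrane regulators, Cr1l, the rodent protein Crry that guards cell surfaces, had 55.8 to 83.1 CPM in all libraries (0.12 ± 0.12), and Cd55, which dissolves the convertases, 12.7 to 49.8 CPM (-0.91 ± 0.28, edgeR adjusted p = 0.0532). Of the 9 receptor genes none was called and all had negative values between the DMM groups (median -0.98), among them Itgb2, the beta chain of complement receptor 3 (-1.14 ± 0.65), and Cd93 (-1.07 ± 0.40), a gene of endothelial and myeloid cells. The low values lay in replicates 3 and 4 labelled c-FosDCh: Itgb2 had 68.9 and 19.6 CPM there, where macrophage and granulocyte marker sums were also low, against 260.5 and 184.2 CPM in replicates 1 and 2 and 210.5 to 358 CPM in c-FosWT DMM libraries. The part of these markers in the receptor values was not tested.

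**Figure D5:**
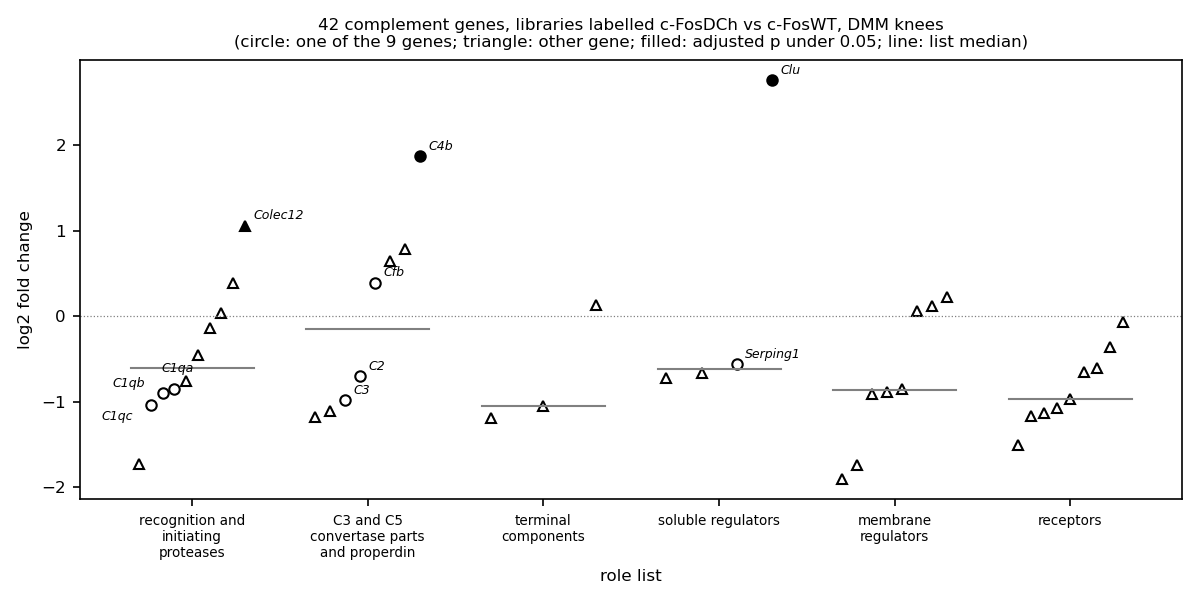
Log2 fold change (y axis) of the 42 tested complement genes between libraries labelled c-FosDCh and c-FosWT libraries of DMM knees, by role (x axis); circles are the 9 genes, triangles the others, filled symbols have an adjusted p under 0.05 and lines are list medians. The 3 filled symbols, Clu, C4b and Colec12, are positive, and all 9 receptor genes lie below 0.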

How the data were processed

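Poly(A) RNA from dissected cartilage was sequenced as single 75-base reads from directional libraries, per the labels' protocols. The authors deposited 1 column of whole read counts per gene and library; the submitters' processing notes name bcl2fastq 2.19.1.403, STAR 2.6.1a, RSEM, DESeq2 1.22.2 and GRCm38, without roles, and which strand the counts follow is not given in the sources used here. Read classes that name no gene were left out of library sizes: unmapped (7.33 to 26.33%), multimapping (6.79 to 10.19%), outside features (33.18 to 41.97%) and ambiguous (0.62 to 0.94%). Of 55421 gene identifiers, 55240 matched GENCODE M21.

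The counts of all 11 libraries were fitted by group with edgeR 4.0.16 (R 4.3.3, limma 3.58.1; TMM scaling, robust quasi-likelihood test, filterByExpr, 18125 genes tested), with Benjamini-Hochberg adjustment over all genes and a threshold of 0.05. CPM use the TMM-scaled totals, and log2 CPM a prior count of 2. The SE of a fold change was taken as its size over the square root of F. The fit was tested on simulated data. No library pair looked duplicated. DESeq2 1.42.0 and other alternatives were also run. Correlations (Python 3.11.15, scipy 1.17.1) have two-sided permutation p-values, exact under 10 libraries and from 100000 resamples otherwise, adjusted over 18 relations. A relation over all 11 libraries had been planned for the macrophage score; it was replaced by 9 libraries because 2 stand apart. Countable read positions replaced exon length when levels of different genes were set side by side, because gene models overlap.

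The knees of 3 animals pair contralateral replicates 1, 2 and 4 with c-FosWT DMM replicates 1, 2 and 3. The deviations from group means correlated at -0.167, -0.177 and 0.254 in these pairs; the pairing comes from the animals in the labels. The replicates labelled c-FosDCh are numbered by accession because 2 labels share a number.

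The 9 genes and all lists were chosen with earlier results of these data known. Named genes outside the 9 are those called in a role list or, where none was, the 2 of highest mean CPM, and the 3 most alike genes with a mean log2 CPM of at least 1. A gene that this rule names is not reported here.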

Additional observations from a re-analysis of the deposited data

Results flagged for a closer look

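C2 stood apart in contralateral replicate 4, at 3.03 CPM (1.66 on the log2 scale, 57 counts) against 1.25 to 1.43 CPM in the other 3 contralateral libraries. Its gap to the nearest of them was too large a share of the group's range by Dixon's criterion on both scales. Chance flags about 1 in 20 groups, and 18 combinations of gene and group of 4 libraries were looked at, so the value is given without further weight.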

How the results depend on the processing

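Of 639 log2 fold changes of the 9 genes under the alternatives, 603 kept their side of the threshold, 27 lost their call, 5 gained one and 4 reversed, where a change of sign counts as a reversal only if the value lay beyond 1 SE of 0 in both fits; 59 changed sign in all. The reversed values were C3 between the DMM groups, at 0.41 with the macrophage and 0.63 with the marrow score as a covariate, and C4b between libraries labelled c-FosDCh and contralateral libraries, at -0.57 with the macrophage score and -0.35 without replicates 3 and 4 labelled c-FosDCh. Between the DMM groups the number of the 9 genes called, 2 in the reported fit, was 1 without the filter on low counts and 0 with the macrophage, chondrocyte or marrow score, with the 2 groups alone, without the 2 muscle-rich libraries and without replicates 3 and 4 labelled c-FosDCh together; leaving out 1 library at a time it ranged from 0 to 5. Of all genes tested, 14.4% were called in the reported fit, 4.27% without the filter, 0% in the other settings just named and 0 to 25.8% leaving out 1 library. Between the c-FosWT groups it was 0, and 1 with DESeq2. Over the 42 tested complement genes the count between the DMM groups was 3, and 11 with the fibroblast score (20.2% of all genes called) and with DESeq2 (25.3%), 0 with the macrophage, chondrocyte or marrow score, the 2 groups alone, without the muscle-rich libraries or without replicates 3 and 4, and 0 to 12 leaving out 1 library; DESeq2 called 2 between the c-FosWT groups (5.01% of all genes) and 1 against contralateral libraries (0.176%), where edgeR called 0. Of the 18 relations with a score, 3 passed in the reported setting, 10 over all 11 libraries, 5 for deviations from group means, 0 with 1 library per animal, 0 without the 2 farthest libraries, 2 without replicates 3 and 4 labelled c-FosDCh (C1qb and C1qc with the macrophage score), and 0 to 5 leaving out 1 library. These counts are of Pearson r, and the share of all genes that would pass was not computed. Of 342 correlations 303 kept their side of the threshold, 24 lost and 15 gained a pass, and 14 changed sign. As a reversal needed an unadjusted permutation p under 0.05 in both settings, 0 reversed. With the macrophage score, Serping1 went from -0.06 over 9 libraries to 0.83 over all 11 (adjusted permutation p = 0.0119). Cfb went from -0.25 to 0.59 (0.122). With the animal as a replicate block, Clu was at -1.62 and C4b at -1.09. In the same 6 libraries without the block, a fit added after the data were seen, they were at -1.54 and -1.10. Each of these fits called 0 of 17420 genes, so there was no call to compare. Scaling by library totals alone moved the median of all genes by -0.17 between the DMM groups, and 54.5% of calls were then higher against 73.7%; both calls of the 9 genes held. The causes of these changes were not tested, and the low counts of C2 and Cfb limit both genes.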
